A study of Lens culinaris with 18 samples.

Results

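The response of lentil leaf to 24 h of polyethylene glycol (PEG) was described across 23305 transcripts. A transcript was included if its value was at least 1 in at least 2 of the 4 leaf libraries taken at 24 h, and 23305 of the 124151 transcripts in the assembly met this rule. Lentil (Lens culinaris Medik., cultivar Sultan, wild type) seedlings aged 7 days were moved to aerated Hoagland's nutrient solution. The control leaves came from seedlings in that solution alone and the treated leaves from seedlings in the same solution with 15% PEG 6000. Each group held 2 biological replicates, called replicates 1 and 2, and the other leaf and root libraries of the study (24 h and 96 h, with and without PEG, 2 replicates each) served for reference. Polyadenylated RNA was sequenced from strand-marked libraries as paired reads.

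PEG of this size stays outside the cells and lowers the water potential around the root, so the shoot receives less water without its leaves touching the polymer. In leaves, water deficit is known to raise abscisic acid, to close stomata, to induce genes for protective proteins and compatible solutes, and to lower many genes of photosynthesis and growth. The deposited file does not pair transcript identifiers with gene names, so no transcript here can be assigned to any of these functions. Identifiers are printed for 4 transcripts only, and others are described by their rank or level. Leaf identity could not be checked with marker genes. The rank correlations of the control leaves were 0.836 to 0.845 with the leaf 96 h controls and 0.661 to 0.666 with the root 96 h controls. Those of the PEG leaves were 0.752 to 0.784 and 0.672 to 0.676. The order of correlations did not follow the tissue throughout: with the leaf 96 h PEG libraries the control leaves had 0.6305 to 0.6357, below their values with the root 96 h controls and with root 24 h control replicate 1 (0.670 and 0.673).

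Values are TPM (reads divided by transcript length and scaled to the same sum in every library), multiplied by the authors by 1 TMM factor per library. TMM is a scaling computed from the transcripts that libraries share. Totals at this scale were 943452 and 847527 in the leaf 24 h controls and 749269 and 805241 with PEG, and the 23305 transcripts held 98.6% to 99.1% of each. Read depth is unknown, so no counting intervals are given. In 3 other libraries, both of leaf at 96 h with PEG and replicate 2 of the root 24 h controls, 76.3% to 92.4% of the total lay in a single pair of transcripts. The pair also took 23.3% of replicate 1 of the root 24 h controls, so both controls of the root comparison at 24 h carried it, and at most 0.0108% of each leaf 24 h library. Replicates at 24 h were close, with a median absolute difference of 0.13 log2 units between the controls and 0.22 between the PEG libraries.

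At the deposited scaling, more leaf transcripts were lower than higher after 24 h of PEG, mainly among those with a mean under 10. Of the 23305, 8019 changed (34.4%), and of these 4642 fell (19.9% of the set) and 3377 rose (14.5%), at a limma adjusted p under 0.05 from a fit of the 8 leaf libraries on log2(value + 1). A change of at least 2-fold was reached by 3276 of those that fell (14.1%) and 1882 of those that rose (8.08%). Both PEG libraries lay below both controls for 40.9% of the transcripts and above both for 35.9%, 76.8% together. Most transcripts outside the called sets thus also had groups that did not overlap. Among all of these were 2109 transcripts that reached 1 in both controls and in neither PEG library, and 1283 the reverse. Such transcripts entered the set through 1 group only and could not overlap, so part of each share follows from the rule of inclusion. The median log2 fold change over all 23305 was −0.05, the quartiles were −0.67 and 0.47, and among those called it was 1.08 for rises and −1.31 for falls.

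**Figure D1:**
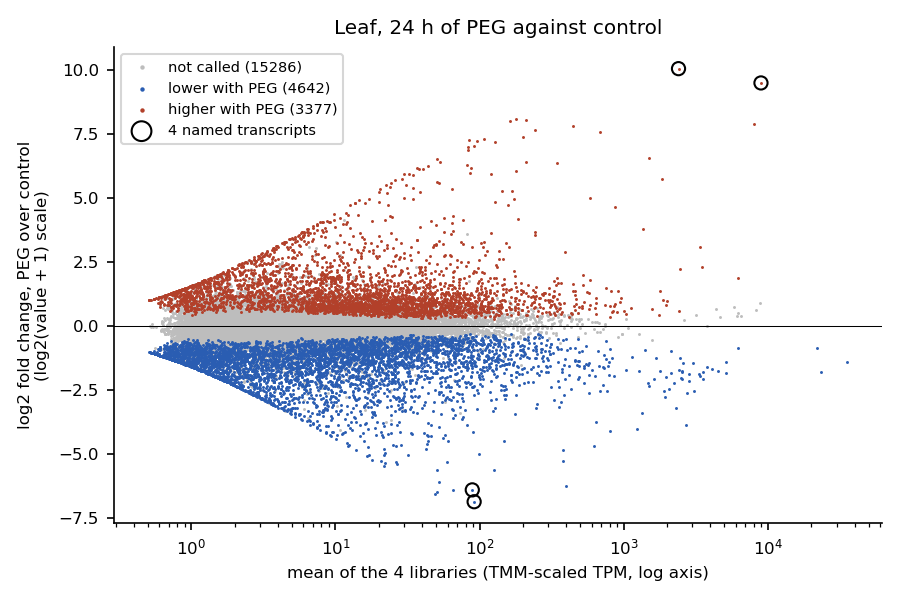
Log2 fold change of each of the 23305 transcripts (vertical axis, PEG over control, log2(value + 1) scale) against its mean in the 4 leaf 24 h libraries (horizontal log axis, TMM-scaled TPM). Blue points are the 4642 that fell, red points the 3377 that rose and grey points the rest, the rings mark the 4 named transcripts, and the slanting outer edges are where 1 group is at or near 0.

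Size and direction went together in part. Among transcripts that differed by 2- to 4-fold, 2336 fell and 1372 rose, and by 4- to 8-fold 695 fell and 302 rose. At 8-fold or more the calls were nearer to balance, with 245 falls and 208 rises. Under 1.5-fold, 223 fell and 314 rose of 12072, so few small differences passed the test. The 2109 transcripts that reached 1 in the controls only had a median log2 fold change of −1.32 (quartiles −1.81 and −0.94). The 1283 that did so with PEG only had a median of 1.24 (quartiles 0.82 and 1.83). Both had to differ under the rule of inclusion, and they were not set aside from these counts.

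The majority of falls depended on the scaling. Falls were 57.9% of calls as deposited, 44.9% when all libraries were brought to an equal total and 46.7% when the pair was taken out first. The majority also turned without either control library if the rule of inclusion was applied again to the remaining 3 libraries, which removes transcripts that reached 1 in the controls only. Falls and rises then numbered 1344 and 1429 without leaf 24 h control replicate 1 and 1389 and 1435 without replicate 2. The number of calls also moved with the libraries in the fit: with the same 23305 transcripts kept, without leaf 24 h control replicate 1 or 2, 2684 and 2674 transcripts fell and 1697 and 1647 rose, and without both leaf 96 h PEG libraries 6985 fell and 5626 rose.

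Transcripts at high levels were called most often. Their replicates also lay closer. At a mean of at least 100, the 90th percentile of the absolute difference was 0.21 log2 units between controls and 0.57 between PEG libraries. Below that mean it was 0.48 and 0.71, so the share called is not a measure of change alone. A call was made for 33.0% of transcripts with a mean under 2, 27.1% of those between 2 and 10, 39.6% of those between 10 and 100, 63.4% of those between 100 and 1000 and 81.2% of those at 1000 or more. The direction also varied with the level. Falls made up 67.2% of calls under a mean of 2 (1152 falls, 563 rises) and 61.5% from 2 to 10 (1496 and 937). Low transcripts can reach 1 in 1 group only and then have to differ. This held for 2109 transcripts in the controls and 1283 with PEG, which were not counted by level. The excess of falls at low levels is thus not separate from the rule of inclusion. Between 10 and 1000 the calls were nearly balanced, with falls making up 51.1% of calls from 10 to 100 and 51.6% from 100 to 1000. Among the 80 transcripts at 1000 or more, 45 fell and 20 rose. Falls at this level numbered 45 under each scaling tried, and 45 to 47 when any single leaf library was left out. With the set kept, rises numbered 15 without leaf 24 h control replicate 2 and 19 to 21 without any other single leaf library.

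The 3 most abundant transcripts of the leaf all fell. The most abundant stood at 55076 and 48241 in the controls and at 20275 and 18394 with PEG. Both PEG libraries lay below both controls, a change of −1.42 on the log2 scale (SE 0.10, limma adjusted p = 0.000297). The next stood at 37458 and 35525 in the controls and at 10693 and 10649 with PEG (log2 fold change −1.77, SE 0.10, limma adjusted p = 0.000154). The third fell less, from 29891 and 26590 to 17349 and 14244 (log2 fold change −0.84, SE 0.12, limma adjusted p = 0.00345).

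Of the 40 most abundant transcripts, 24 fell, 5 rose and 11 were not called. The 24 falls had log2 fold changes between −3.86 and −0.84 with a median of −1.78. In each the PEG libraries lay below both controls, as in all 4642 called falls of the set. All 24 were higher in leaf than in root in the 96 h controls, by 4.37 to 8.09 log2 units. The 5 rises had log2 fold changes between 1.87 and 9.50. Their leaf-to-root difference in the 96 h controls ran from −1.50 to 4.82 log2 units, so they held transcripts higher in root as well as in leaf. At 96 h in leaf all 24 falls were again lower with PEG and all 5 rises again higher (limma, adjusted p under 0.05). Of all 23305 transcripts 44.8% fell and 14.2% rose at 96 h, and of the 80 at 1000 or more 62.5% and 31.25%.

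**Figure D2:**
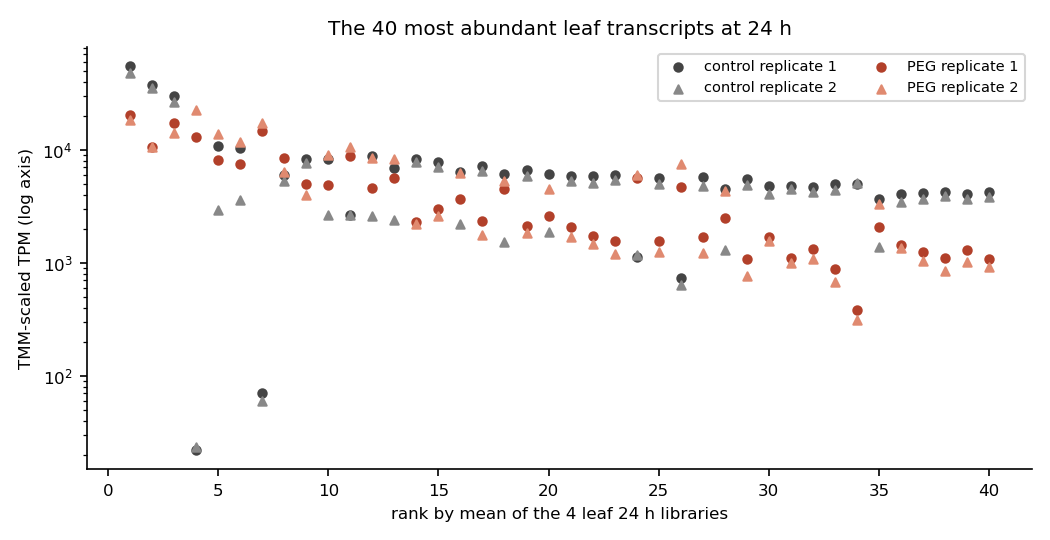
Values of the 40 most abundant transcripts (log axis, TMM-scaled TPM) in the 4 leaf 24 h libraries, ordered by their mean; grey marks are controls, red marks PEG, circles replicate 1 and triangles replicate 2. For 24 of them both red marks lie below both grey marks, the marks at ranks 4 and 7 are farthest apart, with grey far below red, and at 10 ranks the control replicates stand at least 2-fold apart.

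For 10 of the 11 uncalled transcripts among these 40 the control replicates were at least 2-fold apart. Over the whole set, 12 transcripts with a mean of at least 100, both over the 4 libraries and in the controls, were at least 2-fold higher in control replicate 1 than in replicate 2. Their ratio between the controls was 2.67 to 4.31. The highest of them stood at 10756 and 2917 in the controls and at 8106 and 13704 with PEG. In each of the 12 the PEG replicates differed the other way, with replicate 2 above replicate 1 by 1.17 to 2.45 times. Together they took 7.73% and 2.69% of the control totals, 6.22% and 9.46% of the PEG totals and 10.1% and 11.7% of the leaf 96 h controls. None was called at 24 h (limma adjusted p 0.292 to 0.983). These 12 were chosen by their difference between replicates, with the limit on the control mean added after the values were seen, and no test was made of it.

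The make-up of the leaf transcript pool shifted with these changes. The transcripts that fell held 53.8% and 55.9% of the control totals and 23.8% and 19.96% of the PEG totals. Those that rose held 10.7% and 11.4% in the controls and 34.2% and 37.5% with PEG. These sets were chosen on the same libraries, so the shares describe the size of the change and carry no test. In the leaf 96 h controls, whose levels did not enter the fold changes, the falling set held 40.8% and 38.2% of the total and the rising set 12.7% and 13.2%. Among the 100 most abundant transcripts of the controls 70 fell and 12 rose, and among the 100 most abundant with PEG 32 fell and 47 rose. Of all transcripts 19.9% fell and 14.5% rose. Each list was chosen on libraries that enter the fold change. High control values favour falls and high PEG values favour rises, so the contrast of the lists carries no test. The lists shared 62 transcripts. The leading transcript of each library took 5.84% and 5.69% of the control totals and 2.71% and 2.82% of the PEG totals, and in PEG replicate 2 it was a different transcript from that in the other 3 libraries.

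The largest rises began from low levels. TRINITY_DN28161_c0_g1 stood at 5.27 and 1.58 in the controls and at 2628 and 6972 with PEG. The groups were far apart, although the PEG replicates differed from each other (log2 fold change 10.05, SE 0.61, limma adjusted p = 0.000213). At 96 h it was at 1.31 and 2.97 in control leaves and at 9264 and 13378 with PEG. In root it stayed under 20 in every library, with 18.0 and 12.9 at 24 h with PEG.

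TRINITY_DN48308_c0_g1 went from 22.2 and 23.7 to 13092 and 22733 and became the most abundant leaf transcript after the first 3 in the mean of all 4 (a log2 rise of 9.50, SE 0.25, limma adjusted p = 3.21e-05). In PEG replicate 2 it was higher than the transcript that led the controls. Control leaves at 96 h held 11.3 and 10.4 and PEG leaves 10401 and 12026. Root at 24 h held 6.55 and 4.14 without PEG and 98.1 and 40.5 with PEG, a rise of 3.36 log2 units (limma adjusted p = 0.0074).

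Most of the other large rises were also high at 96 h. The sixth largest stood at 70.7 and 60.4 in the controls and at 14608 and 17454 with PEG, and at 31651 and 41781 in leaf at 96 h with PEG (24 h log2 change 7.91, SE 0.17, limma adjusted p = 1.49e-05). The seventh had close replicates, at 2.96 and 2.81 without PEG and 878 and 884 with it. The tenth was at 1.55 and 0.483 in the controls and at 163 and 638 with PEG, and had come down to 19.7 and 12.3 in leaf at 96 h with PEG. In the first 9 of the list, leaf at 96 h with PEG was above 100 in both libraries.

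Of the 5 rises among the 40 most abundant transcripts, those ranked 4 and 7 are the second and sixth largest rises described above, and the other 3 stood higher in control leaves. That ranked 11 went from 2647 and 2662 to 8875 and 10556 (log2 change 1.87, SE 0.12, limma adjusted p = 0.000264). That ranked 24 went from 1128 and 1187 to 5606 and 6025, and that ranked 26 from 731 and 637 to 4651 and 7451. All 3 were lower in the leaf 96 h controls than in the 24 h controls, at 445 and 389, 303 and 245, and 53.6 and 66.3. The steepest fall among the 40 was that ranked 34, from 4962 and 5094 to 382 and 313 (log2 change −3.86, SE 0.26, limma adjusted p = 0.000261).

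The 2 largest falls went from levels above 100 to near 0. TRINITY_DN44537_c2_g1 stood at 230 and 136 in the controls and at 0.742 and 0.354 with PEG (log2 fold change −6.85, SE 0.84, limma adjusted p = 0.00189). It reached 1 in the controls only and so entered the set through them. In the leaf 96 h controls it was at 0.175 and 0.602, so its level in the 24 h controls was not found in older unstressed leaf. TRINITY_DN39401_c0_g1 went from 158 and 196 to 2.09 and 0.435 (log2 fold change −6.39, SE 0.59, limma adjusted p = 0.000715). It was at 162 and 118 in the leaf 96 h controls and at 7.21 and 1.68 at 96 h with PEG, and in root at 24 h it went from 201 and 81.7 to 2.79 and 0.572 (log2 fold change −5.73, limma adjusted p = 0.00443). In root at 96 h the order was the other way, with 1.59 and 1.69 in the controls and 14.2 and 12.9 with PEG, a difference that was not tested.

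**Figure D3:**
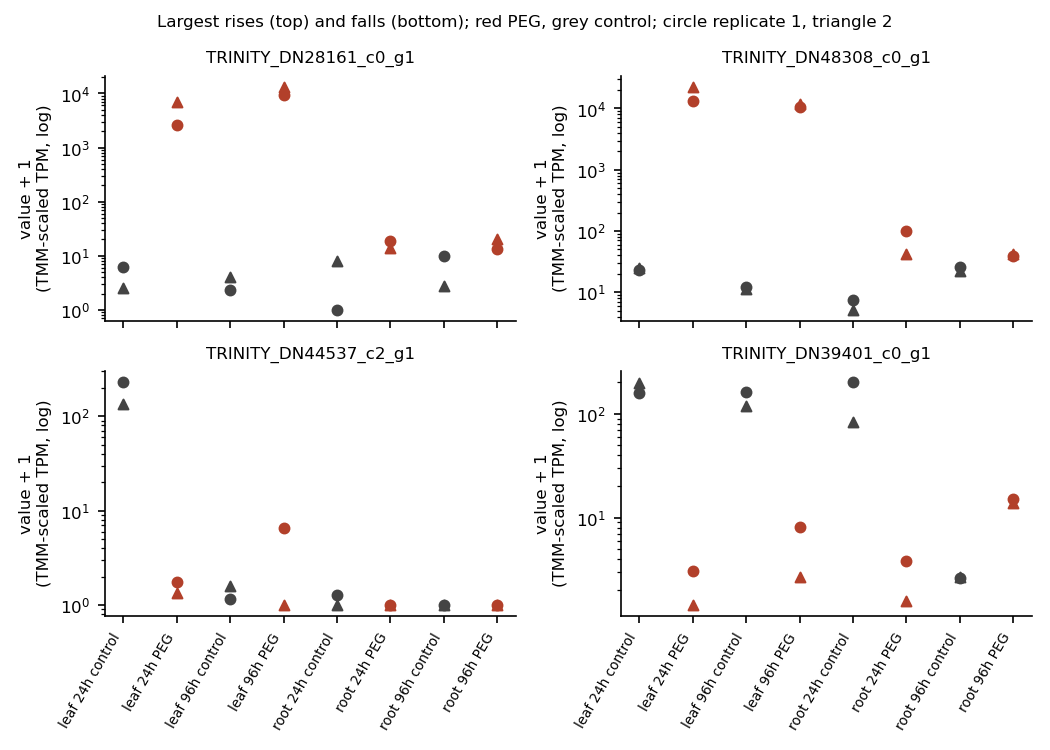
Value + 1 (log axis, TMM-scaled TPM) of the 2 largest rises (top) and the 2 largest falls (bottom) in the 8 groups of leaf and root libraries; red marks are PEG, grey marks controls, circles replicate 1 and triangles replicate 2. The rises are high in leaf with PEG at both times, TRINITY_DN44537_c2_g1 is high in the leaf 24 h controls alone, and TRINITY_DN39401_c0_g1 drops with PEG in leaf at both times and in root at 24 h but is higher with PEG in root at 96 h.

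TRINITY_DN44537_c2_g1 shares an assembly cluster with 4 other transcripts of the set. A cluster is a group that the assembler joined by shared sequence, and it can hold gene copies, alleles or fragments. All 5 fell. The most abundant of them stood at 8331 and 7820 in the controls and at 2297 and 2204 with PEG (log2 fold change −1.84). The next went from 5037 and 4462 to 878 and 677 (log2 fold change −2.62). Unlike TRINITY_DN44537_c2_g1, these 2 were still at 3235 and 2744 and at 1495 and 1277 in the leaf 96 h controls.

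The 20 largest rises ran from 6.36 to 10.05 log2 units among 2122 that met the naming rule, and the 20 largest falls from 4.71 to 6.85 among 2370. In the rises the median of the control means was 0.827 and that of the PEG means 407. At 96 h in leaf, all 20 rises were again higher with PEG (limma, adjusted p under 0.05), beside 14.2% of all transcripts. Of the 20 falls, 9 were again lower at 96 h, beside 44.8% of all, and 1 was higher. In the leaf 96 h controls 12 of these 20 falls had a mean under 10, with a median over the 20 of 2.70, against 91.6 in the 24 h controls. The 20 were chosen in part for high values in the 24 h controls, so lower values in other controls can come from that choice. Over the 4 leaf 24 h libraries, 5200 of all 23305 transcripts had a mean under 2 and 8992 a mean of 2 to 10. In root at 24 h, 10 of the 20 rises also rose (12.9% of all) and 6 of the 20 falls also fell (7.9% of all).

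Some transcripts went from near absence to clear presence. From under 0.5 in both controls, 65 reached at least 10 in both PEG libraries, and 49 did the reverse. All 65 were called as rises and 48 of the 49 as falls, and both sets were chosen by these same values. The mean of the 65 with PEG was 11.5 to 358, and 19 of them were listed at 0 in both controls. The highest stood at 0.396 and 0.263 in the controls and at 368 and 348 with PEG, and at 495 and 668 in leaf at 96 h with PEG. In the leaf 96 h controls 10 of the 65 had a mean of at least 1, and in leaf at 96 h with PEG 49 did. In root at 24 h with PEG 11 did. Of all 23305 transcripts, 15935 and 15969 reached 1 in the leaf 96 h PEG libraries, against 20321 and 20227 with PEG at 24 h. In the leaf 96 h controls 19719 and 19581 did, and in root at 24 h with PEG 17754 and 17301.

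The 49 that dropped below 0.5 had control means of 10.3 to 101. The highest stood at 105 and 96.1 in the controls and at 0.292 and 0 with PEG. In the leaf 96 h controls it was at 0 and 0.095. In the leaf 96 h controls, where 19719 and 19581 of all 23305 transcripts reached 1, 21 of the 49 had a mean of at least 1. There, 8 had a mean of at least 10. The others had a mean under 1 there, and their low values with PEG are set against the 24 h controls only. At a lower limit, 1283 transcripts reached 1 in both PEG libraries and in neither control, and 2109 the reverse. These entered the set through 1 group only, and a difference in them follows from the rule of inclusion.

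Most transcripts typical of leaf were lower with PEG. Leaf-typical transcripts were those at least 4-fold higher in leaf than in root in the 96 h controls, and there were 1833 (7.87% of the set). The leaf 96 h controls do not enter the 24 h fold changes, but they are among the 8 libraries that set the spread for the calls. The set is defined by levels in unstressed leaf, so it can hold few transcripts present in leaf only with PEG. It held 10 of the 1283 that reached 1 in the PEG libraries only and 140 of the 2109 in the controls only. Of the 65 that rose from under 0.5 to at least 10 it held 0. The split of falls and rises is thus not independent of how the set was chosen. Of the 1833, 1032 fell and 113 rose, which is 56.3% and 6.16%, beside 19.9% and 14.5% of all transcripts. Their median log2 fold change was −0.98, against −0.05 over all. The 807 transcripts at least 4-fold higher in root (3.46%) had a median of −0.11, with 198 falls (24.5%) and 146 rises (18.1%). Of the 20665 in neither set 16.5% fell and 15.1% rose. Among the 45 transcripts at 1000 or more that fell, all 45 were leaf-typical, beside 58 of all 80 at that level (72.5%), 3 of the 20 that rose and 10 of the 15 not called. Among the 357 at 100 or more that fell, 249 were (69.7%), beside 32.6% of all transcripts at 100 or more.

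**Figure D4:**
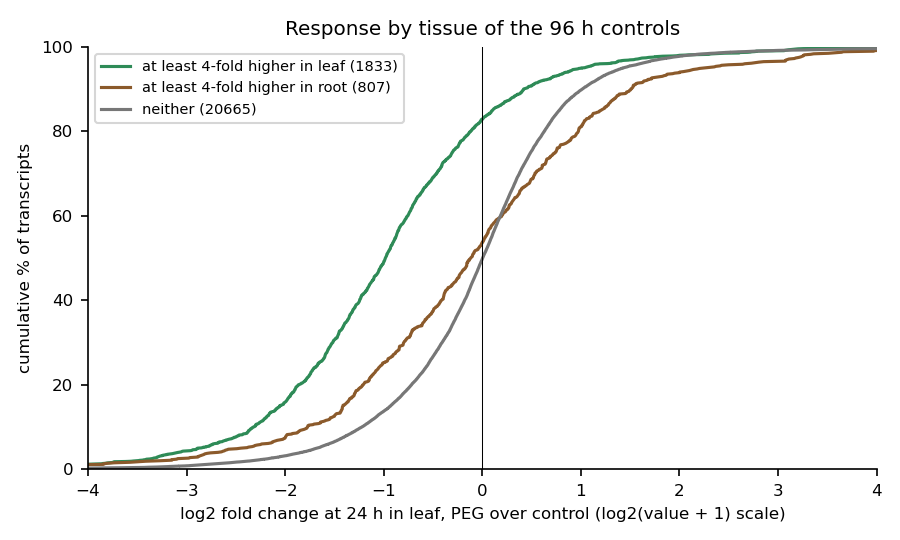
Cumulative share of transcripts (vertical axis, percent) by log2 fold change at 24 h in leaf (horizontal axis, log2(value + 1) scale) for 1833 transcripts at least 4-fold higher in leaf than in root in the 96 h controls, 807 at least 4-fold higher in root and 20665 in neither set. The leaf-typical curve lies to the left, with a median of −0.98, and the others cross 50% near 0.

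Falls outnumbered rises among the leaf-typical transcripts under each scaling tried and with each leaf library left out. Without leaf 96 h control replicate 1 or 2 there were 895 and 896 falls, with 92 rises in either case. Without leaf 24 h control replicate 1 or 2 there were 672 and 685 falls, with 72 and 74 rises, and with the rule of inclusion applied again 545 and 576 falls, with 62 and 68 rises. In a bulk sample, fewer cells of a type and less RNA per cell cannot be told apart. The 1833 transcripts are a set of levels, and their cell types are not known.

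Calls within 1 assembly cluster shared a direction more often than they opposed each other. Of 3392 clusters with at least 2 transcripts in the set, 643 had at least 2 that were called. In 279 all calls were falls, in 189 all were rises, and in 175 they went both ways, so calls shared a direction in 72.8% of the 643. In clusters of exactly 2 transcripts with both called, 320 of 380 shared a direction (84.2%), beside 51.2% over all pairs of called transcripts. Across the 2601 clusters of exactly 2 transcripts, the changes of the partners were correlated (Pearson r 0.48, Spearman rho 0.41). These values describe pairs that share libraries and may share reads, since near-identical copies can split reads between them.

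Opposite moves within a cluster were also present. Where a cluster went both ways, the largest opposed pair, ranked by the smaller of its changes, held a transcript that went from 36.1 and 35.7 to 0 in both PEG libraries and another that went from 0.283 and 0 to 12.4 and 7.25. In the same cluster a further transcript rose from 39.0 and 34.7 to 78.2 and 78.9 (log2 fold change 1.07, limma adjusted p = 0.00129). In the next cluster by the same measure, 1 transcript was listed at 0 in both controls and stood at 7.22 and 7.54 with PEG, while a partner went from 7.21 and 8.08 to 0.015 and 0 and another did not pass the test, at 6.21 and 5.19 without PEG and 4.54 and 7.36 with it. The opposed transcripts of both clusters reached 1 in 1 group only, so they entered the set through the group where they were high and had to differ. With all such transcripts set aside, 72 of the 175 clusters still held calls in both directions. The assembly does not say whether these are gene copies or parts of 1 gene.

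Leaf at 96 h and root at 24 h were set beside the early leaf response. The fold changes at 24 h and 96 h come from different leaf libraries, but both sets of leaf calls rest on the spread of all 8 leaf libraries, so the calls are not independent. The root calls use the root libraries only. Of the 3377 rises, 1340 also rose at 96 h in leaf (39.7%, and 40.6% of the 3303 that rose then) and 890 fell (26.4%). Of the 4642 falls, 3043 also fell at 96 h (65.6%, and 29.1% of the 10444 that fell then) and 269 rose (5.79%). The share of all 23305 that fell at 96 h was 44.8%, so the share among early falls is read against that. The leaf 96 h calls and the root calls were made at the deposited scaling only. The leaf 96 h PEG libraries held 81.1% and 76.3% of their totals in the single pair of transcripts. In root at 24 h, 929 of the early leaf rises rose (27.5%, and 30.9% of the 3006 root rises) and 108 fell. Of the falls, 731 fell in root (15.7%, and 39.7% of the 1840 root falls) and 254 rose.

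**Figure D5:**
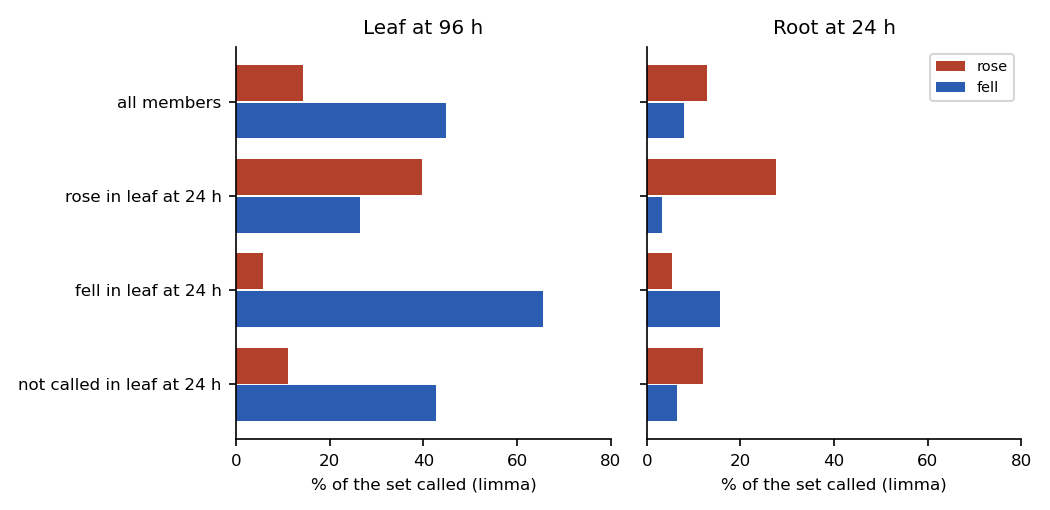
Share of each set of leaf 24 h transcripts that rose (red) or fell (blue) with PEG in leaf at 96 h (left) and in root at 24 h (right), in percent of the set (limma, adjusted p under 0.05). Among all members 14.2% rose and 44.8% fell in leaf at 96 h, against 39.7% and 26.4% of the early rises and 5.79% and 65.6% of the early falls.

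The difference between responses was tested directly. The leaf response at 24 h differed from that at 96 h in 10505 transcripts, or 45.1% (limma interaction at an adjusted p below 0.05). It was the higher at 24 h for 7537 (32.3%) and the lower for 2968 (12.7%). The split moved with the scaling: the share lower at 24 h was 28.3% at the deposited scaling, 43.8% by median ratios, 4.89% at equal library totals and 10.8% at equal totals after the pair was taken out. The 24 h response differed between leaf and root for 5352 (23%), being lower in leaf for 3585 (15.4%) and higher for 1767 (7.58%). The lower share was 67.0% as deposited, 63.9% by median ratios, 73.2% at equal library totals and 39.5% at equal totals after the pair was taken out, and the number that differed was 9467 without root 24 h control replicate 1 and 3567 without leaf 24 h control replicate 1 (2537 with the rule of inclusion applied again).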

How the data were processed

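The deposited table holds 1 signal value per transcript and library, and its name marks these as TMM-scaled. Per the submitters' processing notes the tools were RSEM, edgeR, Trimmomatic 0.35 and FastQC 0.11.5; what each did is not stated. The values show TPM times 1 factor: in each of the 16 libraries 100% of those above 0 and below 0.5 lay within 0.00051 of a whole multiple of 0.01 TPM at that library's scale. Identifiers have the form of Trinity gene-level components, called transcripts here. The sources used here name no aligner, filter or assembler version. The 2 stem samples were not analysed here.

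The test was limma (version 3.58.1, R 4.3.3) on log2(value + 1), a scale that understates changes of low transcripts. There was 1 coefficient per group, with eBayes (trend and robust on), and p-values were adjusted by Benjamini-Hochberg over all 23305 transcripts at 0.05. The 8 leaf libraries entered the leaf comparisons, the 8 root libraries the root one and all 16 the comparison of tissues. Named transcripts were the 2 largest rises and 2 largest falls with adjusted p under 0.05, the higher group's mean at 10 or more, values above 0 in all 4 libraries and groups that did not overlap. P-values rest on the spread between biological replicates in all groups of a fit, adjusted by eBayes with that of other transcripts. The fit was also run on simulated data with independent noise and few changed transcripts, none at the lowest levels. That setting is simpler than these data, so it does not bear on the number of calls here. The members, lists and tests were chosen with earlier results of these data known.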

Additional observations from a re-analysis of the deposited data

Results flagged for a closer look

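The leaf response at 24 h differed from that at 96 h for 10505 transcripts, and from that of root at 24 h for 5352, by a test of the difference itself (limma interaction, adjusted p under 0.05). TRINITY_DN28161_c0_g1 rose by 10.05 log2 units in leaf at 24 h and was 2.53 higher with PEG in root, where it was not called (limma adjusted p = 0.159), and the tissues differed (limma interaction adjusted p = 0.002). TRINITY_DN48308_c0_g1 rose by 9.50 in leaf and 3.36 in root, and the tissues differed (limma interaction adjusted p = 2.16e-05). TRINITY_DN44537_c2_g1 fell by 6.85 in leaf at 24 h, while at 96 h its log2 fold change was 0.90 (limma adjusted p = 0.402), a difference between the times (limma interaction adjusted p = 0.0038). Its root log2 fold change was −0.18 at 24 h, and the tissues differed (limma interaction adjusted p = 0.00054). But in root it was at 0.275 and 0 in the 24 h controls, and in the leaf 96 h controls at 0.175 and 0.602. It thus had almost no level to fall from in either, and neither difference compares responses from like levels. These transcripts were chosen for the size of their change in leaf at 24 h.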

How the results depend on the processing

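Alternative pseudocounts, filters, scalings, libraries and eBayes options, with each leaf library left out in turn, kept the direction of all 4 named transcripts. Where no group was left with 1 library, each stayed past the threshold (limma adjusted p at most 0.00886). For the comparison of tissues the root 24 h libraries were also left out in turn, but those of root at 96 h were not. TRINITY_DN44537_c2_g1 left the set, and was not tested, without either leaf 24 h control library when the rule of inclusion was applied again. Counts over leaf-typical transcripts and those at 1000 or more were followed as alternatives chosen after seeing the data. With only transcripts of a mean of at least 5, fewer were tested: falls numbered 2751 and rises 2457, so falls were 52.8% of calls. Differences between the leaf times then numbered 6954 and between the tissues 3470, and 77.0% of clusters shared a direction. With libraries scaled to the same total, 6668 transcripts rose, 178 leaf-typical ones among them, the times differed for 19954 and the tissues for 2470. The median log2 fold change was then 0.11, and also 0.11 with the pair removed first, against −0.05, so levels shift by that much with the scaling. With spread from the compared libraries alone the tissues differed for 3322. Without both leaf 96 h PEG libraries 5626 rose and 6985 fell. The cause was not tested in these cases. With single libraries left out and the set of 23305 kept, rises ranged from 1647 to 5637, falls from 2674 to 6988, rises at a mean of at least 100 from 197 to 378, leaf-typical rises from 72 to 160, leaf-typical falls from 672 to 1264 and differences between the tissues from 3567 to 9467, and falls were the majority of calls without any single leaf library. The set was kept by a choice made after seeing the counts with the rule of inclusion applied again to the 3 remaining leaf 24 h libraries, a rule that drops transcripts present only in the group left with 1 library. With the rule applied again, falls were 48.5% and 49.2% of calls without leaf 24 h control replicate 1 and 2, and 64.9% and 67.9% without PEG replicate 1 and 2. Rises then numbered 1429, 1435, 1879 and 1518 in that order. Without control replicate 1 and 2, falls numbered 1344 and 1389, leaf-typical falls 545 and 576, leaf-typical rises 62 and 68, transcripts whose response differed by tissue 2537 and 2668, and those whose leaf response differed by time 6298 and 6299. The tissues differed for 3426 without PEG replicate 2, and rises at a mean of at least 100 numbered 188 without control replicate 2. Each left-out library leaves a lone sample that is assumed to vary like the other groups.

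The labels give the groups the same replicate numbers and do not say that they pair samples. Same-numbered libraries did not deviate together (Pearson r −0.04 across 23305 transcripts). With a replicate block within each time 2368 transcripts rose and 3591 fell.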
